A study of Mus musculus with 8 samples.

Results

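Interferon-stimulated genes were followed through the cells of the mouse left ventricle, by cell class and in sham-operated against ischemia–reperfusion (IR) hearts. The module was a list of 42 genes that interferons are known to induce, matched by symbol to the 27998 genes of the matrices. Of these, 41 were found and *Mx2* was not. The study used male mice aged 10 to 12 weeks on a C57BL/6 background, and the labels of these samples give no genotype. In the IR operation the left anterior descending artery was tied for 30 min and then released, and sham mice had the same surgery without the tie. Left ventricles were digested 6 h after surgery, 3 hearts were pooled into a sample, and the records list 4 samples for each condition under the names 0h and 6h. The 0h records were taken here as sham, since the protocol names only sham and IR hearts, but no sample title says sham. No barcode names its sample, so each condition was 1 library with no replicates, and condition and library cannot be told apart. No test between the libraries was possible, and every interval below covers counting error only.

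Interferons bind receptors on the cell surface, and Janus kinases then switch on STAT factors. Type I interferon acts through a complex that holds STAT2 and IRF9 and binds a DNA element called ISRE, and type II interferon acts through an element called GAS. The genes switched on in this way block viruses, mark proteins with ISG15, present antigen and draw in lymphocytes, and some of them, such as *Usp18*, dampen the signal. In the injured heart this program is known from macrophages that take up DNA of dying cells.

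The element itself could be read in front of the members. RefSeq windows of 300 bases, from 250 before to 50 after each gene's start on GRCm38.p6, were at hand for 33 of the 41 genes. The letters GAAANNGAAA on either strand, used here for the ISRE, stood in the windows of 18 of these 33 genes (54.5%) and in those of 1079 of all 27025 genes (3.99%). The letters TTCNNNGAA, used for the GAS, stood in 8 of 33 (24.2%) against 9.55% of all genes. The following 9 windows were picked among genes with the ISRE letters that are named below. Other genes compared below had windows without the letters (*Irf7*, *Irf9*, *Ifit2*, *Xaf1* and *Ifi35*) or no window (*Usp18*, *Ifi27l2a* and *Rtp4*). Each window shown is cut to 30 bases on either side of the matches, runs 5′ to 3′ on the gene's strand, and has the ISRE letters in capitals.
Isg15, chr4:156200845-156200926, minus strand: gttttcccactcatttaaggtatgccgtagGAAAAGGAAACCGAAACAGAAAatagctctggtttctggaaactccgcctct
Ifit1, chr19:34640755-34640843, plus strand: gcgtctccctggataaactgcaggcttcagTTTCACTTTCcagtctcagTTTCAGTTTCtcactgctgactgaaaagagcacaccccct
Ifit3, chr19:34583343-34583446, plus strand: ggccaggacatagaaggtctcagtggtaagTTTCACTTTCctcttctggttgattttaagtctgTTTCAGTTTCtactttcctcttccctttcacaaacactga
Rsad2, chr12:26456533-26456602, minus strand: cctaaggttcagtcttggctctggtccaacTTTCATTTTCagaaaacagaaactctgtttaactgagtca
Oas3, chr5:120777695-120777764, minus strand: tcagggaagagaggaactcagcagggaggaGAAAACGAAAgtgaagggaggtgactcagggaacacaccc
Bst2, chr8:71537557-71537632, minus strand: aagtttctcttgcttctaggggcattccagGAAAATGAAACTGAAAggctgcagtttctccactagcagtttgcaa
Irgm1, chr11:48871405-48871480, minus strand: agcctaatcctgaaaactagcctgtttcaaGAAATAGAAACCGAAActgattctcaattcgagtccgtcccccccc
Gbp3, chr3:142559969-142560044, plus strand: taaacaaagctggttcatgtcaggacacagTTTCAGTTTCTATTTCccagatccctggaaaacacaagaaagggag
Cxcl10, chr5:92349063-92349132, minus strand: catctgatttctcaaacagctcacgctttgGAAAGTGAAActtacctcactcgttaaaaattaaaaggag
*Isg15* held 3 matches between 57 and 78 bases before its start and *Ifit1* held 2 between 76 and 104 bases, while the match of *Cxcl10* lay 204 to 213 bases before its start. In macrophage-like cells the median log2 ratio of 6h to 0h was −1.52 over 18 genes with the letters and −1.69 over 14 without. The median was lower with the letters in 5 of the 9 classes compared below and lower without them in 4. A match is a description of letters and not of binding.

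The 0h matrix held 11620 barcodes with 58653308 UMIs, and the 6h matrix 8539 barcodes with 75033226 UMIs. With at least 200 genes and at most 30% mitochondrial UMIs, 11377 and 8260 cells remained, with a median of 4649 and 6636 UMIs. Cells at 6h were richer in genes, and 40.9% of them had more than 2500 genes against 14.1% at 0h. In every class compared, mitochondrial transcripts were higher at 6h, for example 3.05% and 5.66% of UMIs in macrophage-like cells, and the ribosomal-RNA-like transcripts *Gm42418*, *AY036118* and *Lars2* went from 0.0545% to 0.243% there. Their part in the results was not tested. There were 30 barcodes in both matrices.

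Each cell was classed by its own UMIs of marker genes, and a class is called "-like" to mark this. The classes held 3233 and 983 macrophage-like cells at 0h and 6h, 270 and 1144 monocyte-like cells, 247 and 2408 neutrophil-like cells, and 3454 and 1566 fibroblast-like cells. There were 1182 and 690 B cell-like, 352 and 254 T cell-like, 218 and 66 NK cell-like, 728 and 165 mural cell-like, and 236 and 92 endothelial cell-like cells. The markers of the monocyte-like class were those of classical monocytes and of monocyte-derived cells, *Thbs1* and *Arg1* among them, so it can hold both. Nonclassical monocyte-like cells, 92 at 0h and 46 at 6h, are described at 0h only. The 10 genes that led each of these classes included no marker of another class and no member of the module. Cells with markers of 2 classes, 955 and 493, were left out as possible doublets, and 337 and 289 cells had too few markers. In some classes the cells of the 2 libraries fell mostly in different clusters. When cells were clustered without labels, the distributions over clusters at 0h and 6h overlapped by 13.6% for macrophage-like, 19.0% for monocyte-like, 26.9% for neutrophil-like, 6.85% for B cell-like and 4.09% for fibroblast-like cells, against 98.8% for T cell-like, 97.7% for NK cell-like, 82.7% for mural cell-like and 100% for endothelial cell-like cells. The clusters were made from both libraries together and genes of the module were not left out, so the overlap is not a measure of cell state alone. A lower level in a class can be fewer cells of a state or less RNA per cell, which cannot be told apart.

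At 0h UMIs of the module were found in every class, and its highest levels were in myeloid and endothelial cell-like cells. Levels are UMIs summed over a class and scaled to a class total of 1000000 (CPM), with the exact 95% Poisson interval. Of the 41 genes, 17 had their highest level in neutrophil-like cells, 11 in endothelial cell-like, 9 in nonclassical monocyte-like, 3 in monocyte-like and 1 in macrophage-like cells. For 18 of the 41 the interval overlapped that of the next class. The 9 genes of nonclassical monocyte-like cells became 4 with at most 2500 genes per cell. None had its highest level in lymphocytes, fibroblast-like or mural cell-like cells. How often each class led among all genes was not measured. Summed over the module, and among the 9 classes compared later, neutrophil-like cells reached 29874 CPM, monocyte-like 26386, endothelial cell-like 20006, macrophage-like 18837 and fibroblast-like 17402 CPM, and NK cell-like cells were lowest at 3312 CPM. *Ifitm3* and *Ifi27l2a*, a membrane-bound virus restriction factor and a small mitochondrial protein, made up a large part of these sums. At 1000 UMIs per cell, *Ifi27l2a* was found in 86.6% of B cell-like and 13.3% of NK cell-like cells at 0h. The share of free RNA in the low levels of lymphocytes was not tested.

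**Figure D1:**
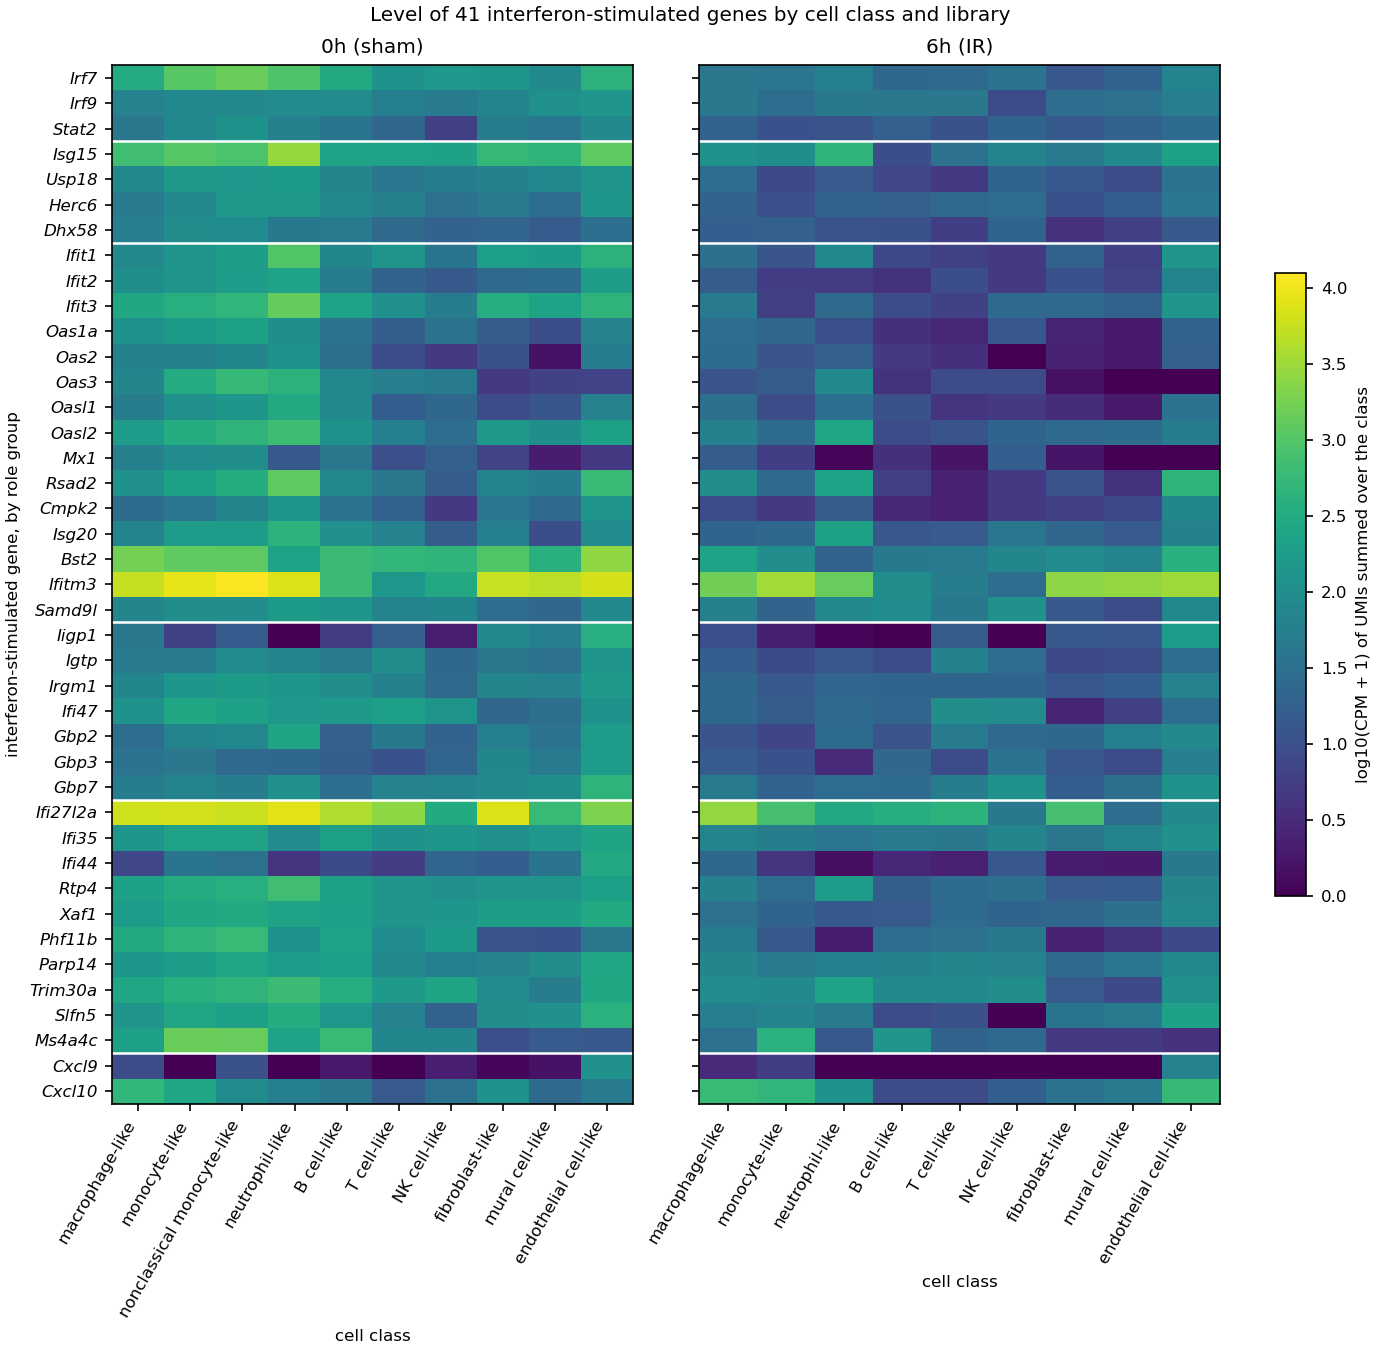
Level of the 41 genes (rows, grouped by role) in each cell class (columns) of the 0h (sham) and 6h (IR) libraries, as log10(CPM + 1). *Ifitm3* and *Ifi27l2a* were the brightest rows in the 0h library and the right panel was darker for most genes and classes, with *Cxcl10* in macrophage-like, monocyte-like and endothelial cell-like cells as an exception.

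Among the signal transducers, *Irf7*, the factor that amplifies the type I response, was highest in nonclassical monocyte-like cells at 0h, at 1483 CPM, followed by monocyte-like (1081 CPM, 1039–1125) and neutrophil-like cells (922 CPM, 847–1003). *Irf9*, the DNA-binding part of the ISRE complex, was flatter, from 49.7 CPM in NK cell-like to 137 CPM in endothelial cell-like cells, and the interval of the latter overlapped that of mural cell-like cells. *Stat2*, its partner, was highest in nonclassical monocyte-like cells at 125 CPM, with an interval that overlapped that of endothelial cell-like cells.

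In the ISG15 group, *Isg15*, the ubiquitin-like modifier, was at 2862 CPM (2728–3001) in neutrophil-like cells and at 1208 CPM (1143–1276) in endothelial cell-like cells, the next in order. *Usp18*, which removes ISG15 and blocks the receptor, was at 170.4 CPM in neutrophil-like and 161 CPM in monocyte-like cells, levels with overlapping intervals. *Herc6*, the ligase for ISG15 in mice, was also highest in neutrophil-like cells (162 CPM), beside 161 CPM in nonclassical monocyte-like cells with an overlapping interval. *Dhx58*, a regulator of RNA sensing, was highest in monocyte-like cells at 101 CPM and did not separate from nonclassical monocyte-like cells.

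The antiviral effectors were split between neutrophil-like and nonclassical monocyte-like cells. In neutrophil-like cells stood *Ifit1* (952 CPM), *Ifit2* (227 CPM) and *Ifit3* (1327 CPM), which bind viral RNA, *Rsad2* (1188 CPM), which makes a chain-ending nucleotide, its neighbor *Cmpk2* (142 CPM), *Isg20* (453 CPM), an exonuclease, *Samd9l* (172 CPM), *Oas2* (129 CPM), *Oasl1* (311 CPM) and *Oasl2* (667 CPM). *Ifit2*, *Cmpk2* and *Samd9l* were not apart from the next class by their intervals. Nonclassical monocyte-like cells led for *Oas1a* (211 CPM) and *Oas3* (551 CPM), which make the activator of RNase L, for *Mx1* (104 CPM) and for *Ifitm3* (12061 CPM). *Oas1a* and *Mx1* overlapped monocyte-like cells, at 168 and 98.1 CPM. *Bst2*, which tethers budding virus, stood apart from these. It was highest in endothelial cell-like cells at 2607 CPM, ahead of macrophage-like cells at 1726 CPM (1707–1746), and only 236 CPM (198–278) in neutrophil-like cells. Between endothelial cell-like and neutrophil-like cells *Oas3* had the opposite order, at 5.63 and 436 CPM.

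Of the 7 immunity-related and guanylate-binding GTPases, 4 were highest in endothelial cell-like cells. *Gbp7* was at 456 CPM (417–499) in endothelial cell-like cells against 117 CPM in neutrophil-like cells, the next in order. *Iigp1* was at 379 CPM (343–418) there and at 84.5 CPM in fibroblast-like cells. It had 0 UMIs in neutrophil-like cells, where 3 UMIs, the floor set for counts of 0, would be 5.01 CPM. *Gbp3* (181 CPM) and *Igtp* (133 CPM) were also highest in endothelial cell-like cells, the latter with an interval overlapping that of T cell-like cells. *Gbp2* led in neutrophil-like (246 CPM), *Irgm1* in nonclassical monocyte-like (169 CPM) and *Ifi47* in monocyte-like cells (292 CPM). The intervals of *Gbp2* and *Irgm1* overlapped those of endothelial cell-like cells, the next in order.

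Of the other induced genes, *Ms4a4c*, a membrane protein of the Ms4a family, was at 1494 CPM (1444–1545) in monocyte-like, at 1418 CPM in nonclassical monocyte-like with an overlapping interval, at 606 CPM in B cell-like and at 13.1 CPM in endothelial cell-like cells. *Ifi44* went the other way, at 298 CPM (267–333) in endothelial cell-like cells and 38.1 CPM in monocyte-like cells. *Ifi27l2a* was at 8181 CPM in neutrophil-like, 7513 CPM in fibroblast-like and 322 CPM in NK cell-like cells. *Rtp4* (698 CPM) and *Trim30a* (625 CPM) were highest in neutrophil-like cells, *Phf11b* (570.1 CPM) and *Parp14* (268 CPM) in nonclassical monocyte-like cells, and *Ifi35* (251 CPM), *Xaf1* (323 CPM) and *Slfn5* (409 CPM) in endothelial cell-like cells. The intervals of *Ifi35*, *Xaf1*, *Slfn5* and *Parp14*, the last at 267 CPM in endothelial cell-like cells, overlapped those of the next class.

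Both chemokines differed between classes. *Cxcl9*, a ligand of CXCR3, was almost limited to endothelial cell-like cells, with 115 CPM (95.9–138) there and 9.58 CPM at most in any other class. *Cxcl10*, another CXCR3 ligand, was instead highest in macrophage-like cells at 519 CPM, followed by monocyte-like (264 CPM, 243–286) and fibroblast-like cells (127 CPM, 122–132). It was the only gene of the module with its highest 0h level in macrophage-like cells.

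The same lines appeared among single cells at equal depth, when each cell was thinned to 1000 UMIs. *Oas3* was then found in 33.1% of neutrophil-like cells (27.1–39.4, exact binomial interval) and 27.1% of monocyte-like cells, but in 0.176% of fibroblast-like and in 0 of 216 endothelial cell-like cells. *Iigp1* was found in 24.5% of endothelial cell-like and in 0 of 236 neutrophil-like cells. *Bst2* was found in 79.6% of endothelial cell-like and 13.6% of neutrophil-like cells. The ratio of these genes to each other thus differed between classes. Before thinning, at medians of 1664 UMIs in neutrophil-like and 3388 in endothelial cell-like cells, *Oas3* was in 49.8% and 1.69% of cells and *Bst2* in 21.9% and 95.3%.

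From 0h to 6h the module was lower in all 9 classes that could be compared. Log2 ratios are of the 6h to the 0h CPM of a class, with an exact conditional binomial interval, and a gene entered the counts with a mean of at least 10 CPM and at least 10 UMIs over both libraries. A change of at least 2-fold is called, with no p. Over the 9 classes, the module gave 322 such ratios, of which 271 were at least 2-fold lower at 6h (84.2%), 4 were at least 2-fold higher, and 304 were below 0. Of all genes tested in a class, between 3.36% (T cell-like) and 21.4% (neutrophil-like) were lower. Between 2.69% (B cell-like) and 18.0% (NK cell-like) were higher. No gene counted had 0 UMIs in either library.

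In monocyte-like cells, 38 of 39 genes were at least 2-fold lower, against 14.7% of the 6674 genes tested, and 0 were higher, against 9.26%. Their median log2 ratio was −3.29, beside −0.17 for all genes. In neutrophil-like cells 36 of 37 were lower (21.4% of all genes) and 1 was higher (10.9%), with a median of −2.75 beside −0.35. In macrophage-like cells 32 of 40 were lower (4.96%) and 1 was higher (8.8%), with a median of −1.59 beside 0.16. The myeloid medians thus lay well below those of all genes in each class.

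Fibroblast-like cells had 32 of 32 genes lower (10.1% of all genes) and 0 higher (10.2%), with a median of −2.65 beside 0.02. In mural cell-like cells 27 of 32 were lower (8.0%) and 0 higher (6.21%), with a median of −2.14. In endothelial cell-like cells 30 of 38 were lower (9.62%) and 1 was higher (8.36%), with a median of −1.61. With at most 10% mitochondrial UMIs, which left 33 endothelial cell-like cells at 6h, 16 genes were lower and the median was −0.79. With at most 2500 genes per cell the fibroblast-like median was −1.61, on 190 cells at 6h. Among lymphocytes, 34 of 38 were lower in B cell-like cells (3.41%) and 0 higher (2.69%), with a median of −3.19. In T cell-like cells 23 of 33 were lower (3.36%) and 0 higher (5.06%), with a median of −1.61. In NK cell-like cells 19 of 33 were lower (9.58%) and 1 was higher (18.0%), with a median of −1.12 beside 0.22. The 6h NK cell-like class had only 250833 UMIs, so that 1 UMI there was 3.99 CPM, as for *Ifit1*.

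**Figure D2:**
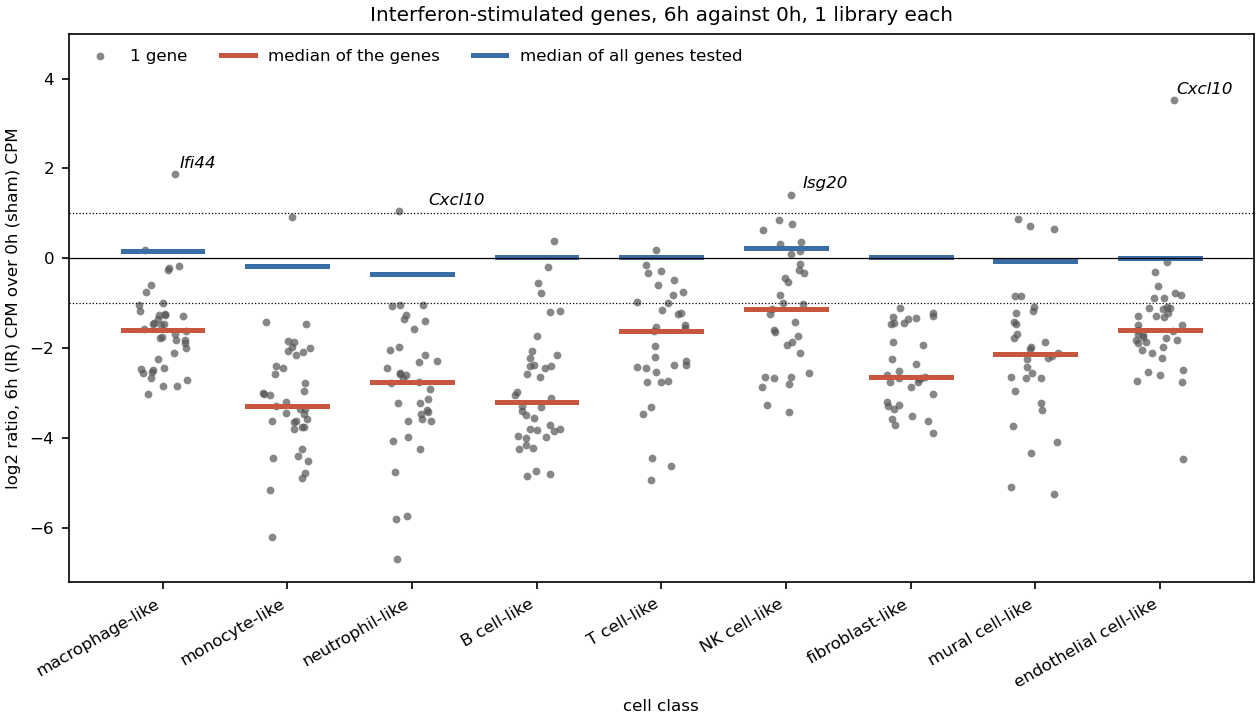
Log2 ratio of the 6h (IR) to the 0h (sham) CPM for each gene of the module that passed the filter (points), by cell class, with the median of the module (red bar) and of all genes tested (blue bar); dotted lines mark 2-fold. The red bars lay between −3.29 and −1.12 and the blue bars between −0.35 and 0.22, and 4 points lay above the upper line.

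A set of 10 genes of the module was at least 2-fold lower in each of the 9 classes, namely *Ifit3*, *Ifit1*, *Bst2*, *Usp18*, *Ifi27l2a*, *Irf7*, *Xaf1*, *Isg15*, *Rtp4* and *Ifi35*. Of all 3500 genes tested in every class, 13 (0.371%) were lower throughout, and these 10 were 76.9% of them. *Lgals3bp* and *Trim12c*, named after their values were seen, were lower throughout and are not in the module. Another 13 genes (0.371%) were higher in all classes, and none of these was in the module.

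*Irf7* was below the module median in each class named here, and it had the lowest ratio of the module in macrophage-like cells. It was at 332 and 40.7 CPM at 0h and 6h in macrophage-like cells (log2 ratio −3.03, −3.18 to −2.88), at 1081 and 39.4 CPM in monocyte-like cells (−4.78, −4.91 to −4.64), and at 922 and 58.1 CPM in neutrophil-like cells (−3.99). In fibroblast-like cells it was at 149 and 12.1 CPM (−3.63) and in endothelial cell-like cells at 424 and 70.2 CPM (−2.60). The 0h and 6h intervals were apart in all 9 classes. *Irf9* differed less, at 63.9 and 42.0 CPM in macrophage-like cells (−0.60), which is under 2-fold, and at 79.7 and 29.0 CPM in monocyte-like cells (−1.46).

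*Isg15* was at 2862 CPM at 0h and 473 CPM at 6h in neutrophil-like cells (−2.60, −2.68 to −2.52) and kept its highest level there. It was at 241 and 8.62 CPM in B cell-like cells (−4.81), its lowest ratio. *Usp18* was at 161 and 7.08 CPM in monocyte-like cells (−4.51) and at 80.0 and 28.8 CPM in macrophage-like cells (−1.48). *Bst2* was at 1726 and 239 CPM in macrophage-like cells (−2.85, −2.91 to −2.79) and between −3.81 and −2.55 in all 9 classes.

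The tetratricopeptide-repeat genes had some of the lowest ratios. *Ifit3* was at 369.6 CPM at 0h and 5.03 CPM at 6h in monocyte-like cells (−6.20, −6.57 to −5.85), at 1327 and 25.0 CPM in neutrophil-like cells (−5.73) and at 363 and 24.4 CPM in fibroblast-like cells (−3.89). *Ifit2* was at 227 and 4.09 CPM in neutrophil-like cells (−5.80) and at 138 and 4.60 CPM in monocyte-like cells (−4.90). *Phf11b* was lower still in neutrophil-like cells, at 120.3 and 1.17 CPM (−6.69, −7.63 to −5.85), on 72 and 14 UMIs. *Ifi47* had the next lowest ratio of fibroblast-like cells after *Ifit3*, at 21.8 and 1.67 CPM (−3.71). *Ifit3* and *Ifit3b*, like other members of these gene families, are near copies, and reads shared between them are uncertain.

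The most abundant genes also differed. *Ifitm3* was at 9009 and 3356 CPM in monocyte-like cells (−1.42), at 5659 and 2449 CPM in fibroblast-like cells (−1.21) and at 4863 and 2723 CPM in mural cell-like cells (−0.84), among the smaller differences. *Ifi27l2a* was at 6454 and 2705 CPM in macrophage-like cells (−1.25), but at 8181 and 302 CPM in neutrophil-like (−4.76) and 2043 and 91.6 CPM in endothelial cell-like cells (−4.48). At 6h its highest level was in macrophage-like cells. *Ms4a4c* was at 1494 and 413 CPM in monocyte-like cells (−1.85) and 237 and 12.5 CPM in neutrophil-like cells (−4.25).

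**Figure D3:**
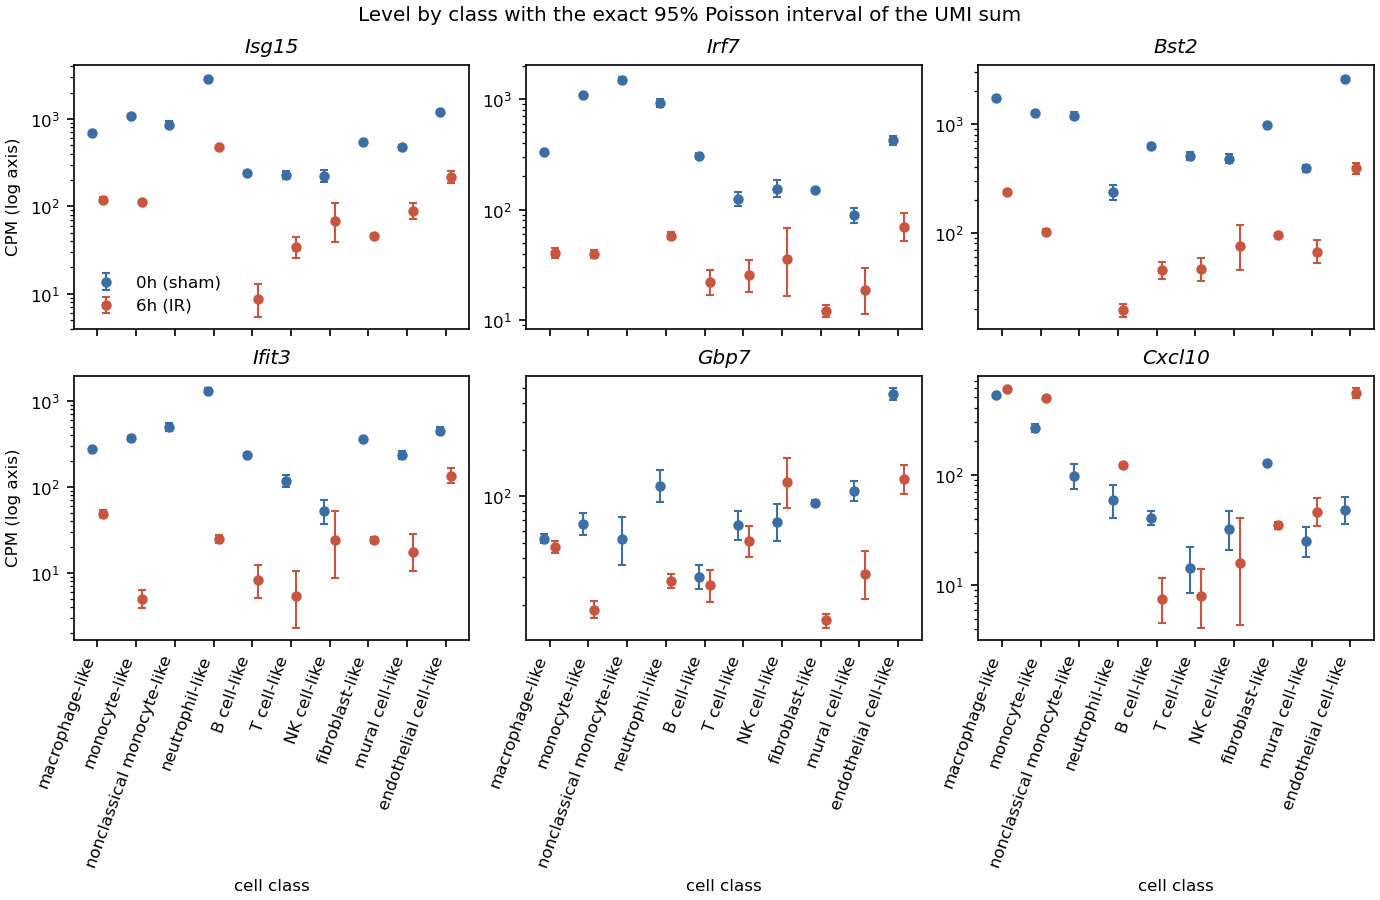
Level (CPM, log axis) of *Isg15*, *Irf7*, *Bst2*, *Ifit3*, *Gbp7* and *Cxcl10* in each cell class of the 0h (blue) and 6h (red) libraries, with exact 95% Poisson intervals of the UMI sum. *Isg15*, *Irf7* and *Bst2* were lower at 6h in all classes shown in both libraries, *Gbp7* overlapped in macrophage-like and lymphocyte classes, and *Cxcl10* was higher at 6h in endothelial cell-like, monocyte-like and neutrophil-like cells.

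How many GTPases were lower varied by class. All 7 of 7 tested were at least 2-fold lower in fibroblast-like (10.1% of all genes) and in endothelial cell-like cells (9.62%). In macrophage-like cells 6 of 7 were (4.96%). In NK cell-like cells 0 of 6 were, a count near the share of all genes (9.58%). In T cell-like cells 1 of 6 was, *Irgm1* (3.36% of all genes). In B cell-like cells 3 of 6 were (3.41%), with *Ifi47* at −2.99, *Igtp* at −2.65 and *Irgm1* at −2.40. The median log2 ratio of the GTPases was −1.59 in B cell-like cells, −1.57 in macrophage-like and −0.55 in T cell-like cells, where that of the antiviral effectors was −2.60 with 9 of 10 lower. *Gbp7* was at 65.3 and 51.7 CPM in T cell-like cells (−0.34, −0.80 to 0.12) and at 68.3 and 124 CPM in NK cell-like cells (0.86, 0.17 to 1.52), against 90.4 and 15.8 CPM in fibroblast-like cells (−2.51). *Iigp1* was at 17.3 and 15.4 CPM in T cell-like cells and at 379 and 175 CPM in endothelial cell-like cells (−1.12). Whether these ratios differ between classes beyond the libraries was not tested.

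*Cxcl10* departed from the module. It was at 47.9 and 548 CPM in endothelial cell-like cells (3.52, 3.09 to 3.97), at 58.5 and 121 CPM in neutrophil-like cells (1.05, 0.57 to 1.58), and at 264 and 496 CPM in monocyte-like cells (0.91). In macrophage-like cells the levels were 519 and 589.7 CPM (0.18). It was lower in fibroblast-like cells, at 127 and 35.0 CPM (−1.86, −1.98 to −1.75), and in B cell-like cells, at 40.7 and 7.49 CPM (−2.44). Of the 174 B cell-like UMIs at 0h, 49 were in a single cell. At 1000 UMIs per cell the B cell-like share with *Cxcl10* was 2.14% at 0h and 1.04% at 6h. With at most 2500 genes per cell, the fibroblast-like ratio of *Cxcl10* turned to 0.75. The higher levels were spread differently. In endothelial cell-like cells 15 of 92 had a *Cxcl10* UMI at 6h, and 216 of the 383 UMIs were in a single cell. In neutrophil-like cells 10 cells held 52.9% of the 1451 UMIs, and at 1000 UMIs per cell the share with *Cxcl10* was 3.39% at 0h and 3.38% at 6h. In monocyte-like cells it was 14.5% and 19.0%, and 10 cells held 53.4% of the *Cxcl10* UMIs at 0h and 20.8% at 6h.

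Other exceptions were small. *Ifi44* was at 6.42 and 23.6 CPM in macrophage-like cells (1.88, 1.55 to 2.22), in 56 of 3233 and 68 of 983 cells, and at 298 and 44.4 CPM in endothelial cell-like cells (−2.75). *Isg20* was at 14.9 and 39.9 CPM in NK cell-like cells (1.42, 0.05 to 2.76) on 12 and 10 UMIs, and 6 of the latter were in a single cell. With classes from clusters the ratio of *Isg20* there was −0.22. In neutrophil-like cells *Isg20* was at 453 and 220.0 CPM (−1.04), still its highest level at 6h. *Samd9l* was at 71.3 and 59.6 CPM in macrophage-like cells (−0.26) and at 85.4 and 80.2 CPM in endothelial cell-like cells (−0.09, −0.60 to 0.40). *Cxcl9* was at 115 and 65.9 CPM in endothelial cell-like cells (−0.81), and 31 of its 46 UMIs at 6h were in a single cell. *Rsad2* was at 117 and 100.2 CPM in macrophage-like cells (−0.22), but in 25.5% and 10.7% of cells, and 10 cells held 67.0% of its UMIs at 6h.

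Counted per cell, the module took a median of 39 of 1000 UMIs in neutrophil-like cells at 0h and 3 at 6h. The medians were 30 and 5 in monocyte-like, 15 and 4 in macrophage-like, 17 and 3 in fibroblast-like, 9 and 1 in B cell-like, and 20.5 and 5 in endothelial cell-like cells. At 6h the UMIs were gathered in fewer cells. Without *Ifitm3* and *Ifi27l2a*, the 10% of cells with most module UMIs held 53.6% of them at 6h in neutrophil-like cells against 24.4% at 0h. The shares were 56.5% against 31.6% in fibroblast-like cells and 68.7% against 26.6% in endothelial cell-like cells. A smaller count per cell also spreads such shares, and that part was not tested.

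**Figure D4:**
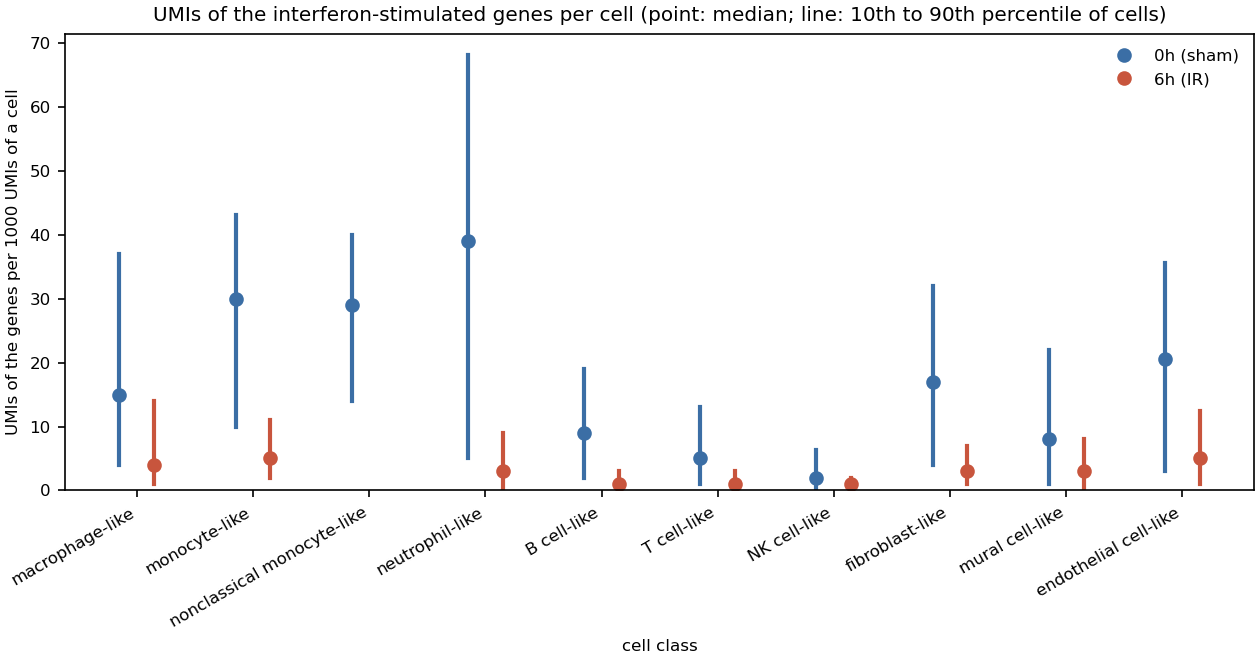
UMIs of the module per 1000 UMIs of a cell (vertical axis) in each cell class of the 0h (blue) and 6h (red) libraries; points are medians over cells and lines run from the 10th to the 90th percentile. Medians at 0h reached 39 in neutrophil-like and 30 in monocyte-like cells, and all medians at 6h were 5 or below.

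In the classes given here at 0h, *Ifit3* was found more often in cells with *Isg15*. In neutrophil-like cells at 1000 UMIs, *Ifit3* was found in 81.3% of cells with *Isg15* and in 8.33% of cells without it. In macrophage-like cells the shares were 39.6% and 9.15%, and in fibroblast-like cells 43.2% and 14.3%. In monocyte-like cells they were 29.3% and 21.6%, the closest of these. Of the 7 pairs measured in macrophage-like cells at 0h, 6 went this way. The exception was *Igtp*, found in 2.59% of the 116 cells with *Iigp1* and in 4.12% of those without it. For this pair the shares were 9.62% and 3.21% in fibroblast-like, 17.1% and 2.83% in mural cell-like, and 26.4% and 7.36% in endothelial cell-like cells at 0h. *Isg15* itself was found in 74.6% of neutrophil-like cells at 0h (68.5–80.0) and 23.2% at 6h (21.5–25.0), in 33.3% and 8.91% of macrophage-like cells, and in 30.2% and 3.46% of fibroblast-like cells. Unthinned, the neutrophil-like shares were 82.2% and 42.1%.

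At 6h, 17 of the 41 genes had their highest level in the same class as at 0h, among them *Isg15* in neutrophil-like and *Bst2* in endothelial cell-like cells. Of the 24 that did not, 9 had been highest in nonclassical monocyte-like cells, which were not compared at 6h. Endothelial cell-like cells held the highest 6h level of 23 genes, and for 11 of these the interval overlapped that of the next class. Neutrophil-like cells held it for 6 genes, macrophage-like for 5, NK cell-like for 3, and monocyte-like and T cell-like cells for 2 each. All 3 NK cell-like leads overlapped the next class. As at 0h, the share of all genes that each class led was not measured. With at most 2500 genes per cell, endothelial cell-like cells led for 15 genes and macrophage-like cells for 13. *Rsad2* was at 471 CPM in endothelial cell-like cells at 6h (583 CPM at 0h), with 90.6% of its 329 UMIs in 10 cells. The endothelial cell-like levels at 6h come from 92 cells in all. In cells thinned to 1000 UMIs they led for 15 genes.

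The rest of the interferon pathway was measured from a list of 27 genes. Among ligands, *Ifnb1*, encoding interferon-β, was at 59.7 CPM (56.1–63.5) in macrophage-like cells at 0h and 6.47 CPM (4.97–8.28) at 6h (−3.21), and at most 7.44 CPM in the other classes compared. In nonclassical monocyte-like cells *Ifnb1* was at 20.8 CPM at 0h. *Ifng*, encoding interferon-γ, was at 215 and 159 CPM in NK cell-like cells (−0.43, −0.96 to 0.07) and 24.0 and 2.01 CPM in T cell-like cells (−3.58) on 32 and 3 UMIs. The receptor chain *Ifnar1* was at 44.2 and 97.1 CPM in monocyte-like cells (1.13) and 47.2 and 66.0 CPM in macrophage-like cells (0.48), and *Ifngr1* was at 254 and 215 CPM in the latter (−0.24).

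Among the other genes of the list, the nucleic acid sensor *Zbp1* was at 177 and 35.3 CPM in macrophage-like cells (−2.32). Some pathway genes were higher, and *Jak2*, the kinase of the interferon-γ receptor, was at 38.4 and 226 CPM in neutrophil-like cells (2.56). *Socs3*, a brake on cytokine signals, was at 219 and 1266 CPM in neutrophil-like cells (2.53) but at 859 and 310.2 CPM in fibroblast-like cells (−1.47). By class, 6 of 21 pathway genes tested were at least 2-fold lower and 0 higher in macrophage-like cells (4.96% and 8.8% of all genes). The counts were 7 and 3 of 20 in monocyte-like (14.7% and 9.26%) and 7 and 3 of 17 in neutrophil-like cells (21.4% and 10.9%). They were 6 and 2 of 18 in B cell-like (3.41% and 2.69%) and 3 and 1 of 17 in T cell-like cells (3.36% and 5.06%). In NK cell-like cells they were 1 and 4 of 19 (9.58% and 18.0%), and in fibroblast-like cells 8 and 2 of 19 (10.1% and 10.2%). In mural cell-like cells they were 3 and 1 of 15 (8.0% and 6.21%), and in endothelial cell-like cells 4 and 4 of 18 (9.62% and 8.36%). The counts of higher genes in NK cell-like, T cell-like, mural cell-like and fibroblast-like cells were near the shares of all genes. Medians of the pathway genes lay between −0.88 and 0.19, above those of the module in every class.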

How the data were processed

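Single cells of 2 conditions were measured with the 10× Chromium 3′ v2 kit, and the authors deposited raw counts of UMIs for each gene in each barcode, from Cell Ranger (version 3.1.0 in the matrix headers) and mm10. Cell Ranger counts only reads assigned to a single gene, which lowers genes with near copies. The deposited matrices give no sample per barcode, so n was 1 library per condition. The members and all lists were chosen with earlier results of these data known.

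Cells needed 200 genes and at most 30% mitochondrial UMIs. The upper limit of 2500 genes stated in the study's methods was not used as the main setting, because it removed 40.9% of 6h cells, and is an alternative. A cell took the class with the highest mean log-scaled score over its markers (117 genes, 3 not found), needed 3 markers found, and was left out where another class reached 0.5 of its score; this rule was set after the data were seen. UMIs were summed by class and library, scaled to CPM and given with 95% Poisson intervals, and log2 ratios with 95% conditional binomial intervals. Counts of 0 were set to 3 UMIs for ratios. Classes under 50 cells in a library got no ratio. Shares used cells thinned to 1000 UMIs, leaving out shallower cells, for example 56 of 3233 macrophage-like cells at 0h and 99 of 2408 neutrophil-like cells at 6h. UMI totals of the classes compared ran from 250833 to 23368953. PCR and pooling error are not in the intervals.

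Every gene found is named with its leading class. Values are given for the 2 genes of each role group with the highest CPM, those past 2-fold in opposite directions in 2 classes, and the 3 highest and 3 lowest ratios in macrophage-like, monocyte-like, neutrophil-like and fibroblast-like cells, 19 genes in all, and values of other genes were picked after they were seen. The scripts were tested on simulated data. Values of 1 gene are not reported here. Promoter sequences are RefSeq's on GRCm38.p6. Python 3.11.15, numpy 2.4.6, scipy 1.17.1, pandas 2.3.3, leidenalg 0.10.2 and matplotlib 3.10.9 were used. The alternatives were the gene limit, a limit of 10% mitochondrial UMIs, classes from 30 Leiden clusters, centring on the median gene, a filter at 50 CPM, no filter, thinning, and, added after the data were seen, leaving out barcodes in both matrices.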

Additional observations from a re-analysis of the deposited data

Results flagged for a closer look

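Some genes of the module were past 2-fold in opposite directions in different classes, a difference that was not tested, since each condition was 1 library. *Cxcl10* had log2 ratios of 3.52 in endothelial cell-like and 1.05 in neutrophil-like cells and of −2.44 in B cell-like cells. A single cell held 216 of its 383 endothelial cell-like UMIs at 6h, and another held 49 of its 174 B cell-like UMIs at 0h. *Ifi44* had 1.88 in macrophage-like and −5.24 in mural cell-like cells, the latter on 64 and 1 UMIs. *Isg20* had 1.42 in NK cell-like and −3.30 in B cell-like cells.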

How the results depend on the processing

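Median log2 ratios of the members stayed below 0 in all 9 classes under every alternative for which ratios were computed. Thinning was run for levels only and gave no ratios. No paired analysis was possible because the matrices carry none of the replicate numbers in the labels. Of 275 ratios past 2-fold, 250 stayed so with the limit of 2500 genes, 255 with at most 10% mitochondrial UMIs, 267 with classes from clusters, 271 after centring and 275 without barcodes in both matrices. With 2500 genes, which left 190 fibroblast-like cells at 6h, medians were −1.25 in macrophage-like, −3.63 in monocyte-like and −1.61 in fibroblast-like cells; *Parp14* (0.22), *Samd9l* (0.19) and *Cxcl10* (0.75) turned higher in fibroblast-like cells. Genes higher were then 0 in neutrophil-like and NK cell-like and 1 each in fibroblast-like and mural cell-like cells, and highest levels lay in nonclassical monocyte-like cells for 4 genes at 0h, and in endothelial cell-like cells for 15 and macrophage-like cells for 13 at 6h. With at most 10% mitochondrial UMIs, which left 105 and 33 endothelial cell-like cells, the endothelial median was −0.79 with 16 genes lower, 2 higher and *Gbp2* at 0.42; higher genes were 0 in NK cell-like and 1 in mural cell-like cells, and macrophage-like cells led for 3 genes at 6h. With clusters, higher genes were 1 in monocyte-like, 0 in NK cell-like and 1 in mural cell-like cells, and *Isg20* was at −0.22 in NK cell-like cells. Centring gave 1 higher gene in monocyte-like cells. At 50 CPM, with fewer genes tested, lower genes were 19 of 25 in macrophage-like, 21 of 22 in B cell-like, 11 of 17 in T cell-like, 10 of 14 in NK cell-like, 15 of 15 in fibroblast-like (median −3.20) and 14 of 15 in mural cell-like cells, and higher genes were 0 in macrophage-like and NK cell-like cells. Without a filter, higher genes were 1 in monocyte-like, 5 in NK cell-like and 2 in mural cell-like cells. Thinning left endothelial cell-like cells leading for 15 genes at 6h. The causes were not tested. With 1 library per condition, leaving out a replicate could not be run.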
